A study of Mus musculus with 6 samples.

Results

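Neutrophils of the right lung were studied in 6 male hCTLA4 mice, in which human sequence replaces part of the mouse Ctla4 gene on a C57BL/6 background, after repeated bleomycin injury. They are 1740 barcodes of the 29439 that passed the limits on quality. They were chosen by measured transcripts: at least 500 unique molecular identifiers (UMIs, each 1 captured transcript) and 300 genes, at most 10% of UMIs from mitochondrial genes, S100a8 plus S100a9 at 50 or more per 10000 UMIs, and at least 2 UMIs of Csf3r, Cxcr2 and Retnlg together. Barcodes with a UMI of Cd79a (B cells), Cd3e (T cells) or Atp6v0d2 (alveolar macrophages) were left out. The levels of these 8 genes are therefore a description and carry no test.

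All mice were 12 weeks old and received bleomycin by the oropharyngeal route in 2 doses, 2 weeks apart. From day 21 after the last bleomycin dose, antibody was given at 5 mg per kg over 4.5 weeks. The 3 mice of the IgG1 group, labelled control, received the isotype antibody. The 3 mice of the ipilimumab group, labelled anti-CLTA4 mAb, received ipilimumab, an antibody to human CTLA4. Each lung gave 1 droplet library of 3' ends, with 37666042 to 48612412 UMIs in all. The labels name no culture, cage or batch shared by replicates, and p-values measure the spread between these mice only. Every mouse was injured, so the comparison is between antibodies in fibrotic lung and has no uninjured reference.

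Neutrophils are short-lived granulocytes that leave the bone marrow with their granule proteins already made and enter injured tissue along chemokine and complement gradients. In tissue they make interleukin-1 and chemokines that draw in further leukocytes, and they release gelatinase and reactive oxygen. They carry little RNA and many RNases, so they give few transcripts per cell beside macrophages.

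The rule was passed in steps. S100a8 and S100a9 alone kept 2102 barcodes, the receptor genes kept 1897 of these, and Cd79a, Cd3e and Atp6v0d2 were found in 93, 28 and 43 of these 1897, with some barcodes counted more than once. At the S100 limit, 25 members had 50 to 60 S100a8 and S100a9 UMIs per 10000, and 29 barcodes with 40 to 50 were left just outside. At the receptor limit, 39 members had exactly 2 UMIs and 54 barcodes with 1 were left outside, 35 of them in ipilimumab replicate 1. No doublet caller was run. In all, 142 members had 10 or more UMIs per 10000 from marker genes of other cell types, and 6 members had a barcode that also passed in another library, none of which was a neutrophil there.

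Ipilimumab replicate 1 stood apart, with 22056 barcodes of at least 100 UMIs against 4834 to 6230 in the other libraries. Of its 8336 passing barcodes, 4092 had fewer than 1500 UMIs, against 110 to 247 in the others. IgG1 replicate 2 stood apart in free RNA, estimated from barcodes of at most 100 UMIs. There S100a8 and S100a9 reached 56.4 per 10000 UMIs, above the limit of the rule, against 10.6 to 23.0 in the other libraries, so that free RNA alone would have met the S100 step in this library. The receptor step and the UMI floor still applied there. The B gate was barcodes with at least 2 UMIs of Cd79a, none of Cd3e and under 50 S100a8 and S100a9 UMIs per 10000. In the same library this gate held S100a8 and S100a9 at 0.622 per 10000, a value from which barcodes at the S100 limit were left out. Ipilimumab replicate 2 stood apart in the estimated share of free RNA within its neutrophils, 11.5% against 1.90 to 2.49% in the other 5 libraries. That estimate rests on 8 genes of other cell types, Sftpc among them, and 1 barcode of this library held 1676 UMIs of Sftpc.

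The median neutrophil had 3621 to 4432 UMIs and 1221 to 1382 genes, depending on the library. A tail of 90 members had more than 8000 UMIs. They numbered 12, 25 and 9 in the IgG1 mice and 9, 19 and 16 in the ipilimumab mice. In ipilimumab replicates 2 and 3 this tail held 28.6% of all neutrophil UMIs in each, against 10.7 to 17.2% in the other libraries. Ribosomal protein genes made up 5.25 to 7.91% of the UMIs of these members and 2.08 to 2.52% of the others. Counts of genes called were therefore also taken without this tail.

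**Figure D1:**
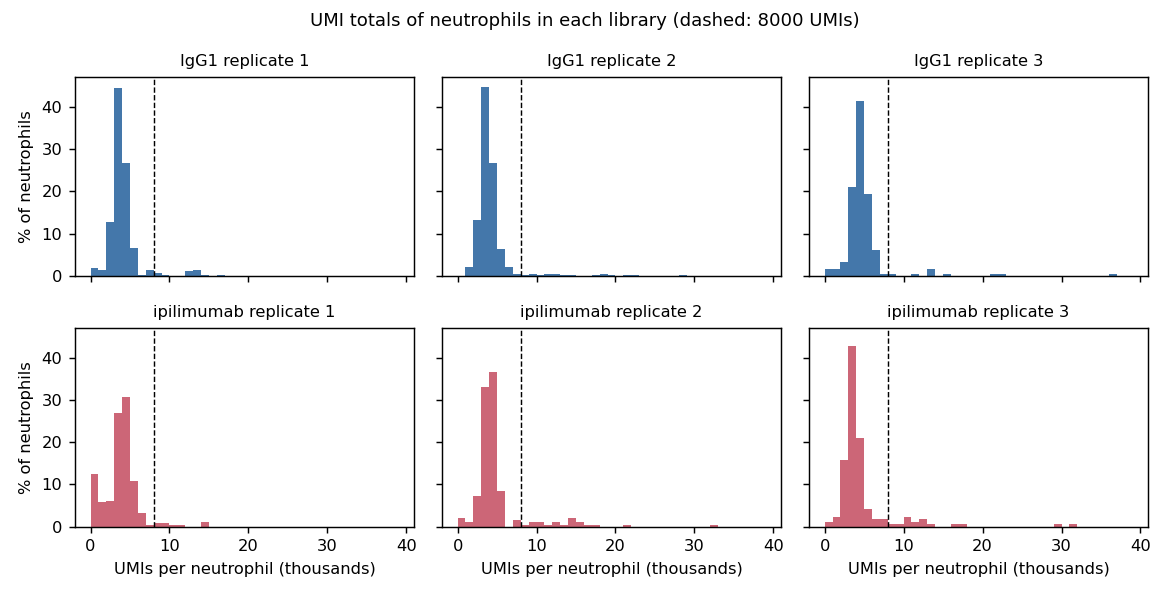
UMIs per neutrophil (x axis, in units of 1000 and bins of 1000) against the percentage of the neutrophils of each library (y axis), with IgG1 libraries above and ipilimumab libraries below. Most cells lie between 2000 and 6000 UMIs, ipilimumab replicate 1 has an added group of low totals, and the tail past 8000 UMIs (dashed line) counts 90 cells in all.

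The chosen cells carried the transcripts that define neutrophils, also those the rule did not use. S100a8 and S100a9, which encode the subunits of calprotectin and lie beside each other on mouse chromosome 3 (GRCm38, 90668978 to 90670035 and 90692632 to 90695721), made up 4.23 to 7.09% of neutrophil UMIs. Il1r2, the decoy receptor for interleukin-1, was found in a mean of 98.4% of members per mouse, and in 10.7% of the B gate. Mmp9, gelatinase B, was found in 91.6% of members and 0.378% of the B gate. Of the rule's own genes, Csf3r (the receptor for granulocyte colony-stimulating factor) was found in 98.2%, Retnlg (a secreted resistin-like protein) in 79.9% and Cxcr2 (the receptor for Cxcl2 and related chemokines) in 77.4%.

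Levels are given as CPM, the UMIs of a gene per 1000000 UMIs summed over the neutrophils of a mouse. Il1r2 stood at 5401, 4296 and 5971 CPM in the IgG1 mice and at 5429, 3739 and 3707 CPM in the ipilimumab mice. Retnlg stood at 2255, 2446 and 1721 CPM in the IgG1 mice and at 2001, 2110 and 1003 CPM in the ipilimumab mice. The lowest Retnlg value was that of ipilimumab replicate 3, and the remaining 5 mice lay within the range 1721 to 2446 CPM. Csf3r ran from 1296 to 1706 CPM over all 6 mice.

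Beside all other passing barcodes, the genes outside the rule with the highest ratios, chosen for them, included G0s2 (an inhibitor of triglyceride breakdown), Acod1 (which makes itaconate), Hdc (which makes histamine), Il1r2, Mmp9, Entpd1 (the ectonucleotidase CD39), Il1b and Stfa2l1 (a stefin). G0s2 was 92.4 to 142 times as high as in the other barcodes, Acod1 75.0 to 131 times, Hdc 65.6 to 102 times and Il1b 36.4 to 55.4 times, with 10 CPM added to both sides. These ratios describe the choice of cells and were not tested. The precursor genes of the primary granule (Mpo, Elane, Prtn3, Ctsg and Ms4a3) were too low for testing in all 5 cases.

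Markers of other lineages were read as the summed CPM of 4 genes each. Marco, Foxj1, Epx, Cpa3, Mcpt8 and Ms4a2 had no UMI in any member. The list for nonclassical monocytes averaged 899.9 CPM, more than the 313 CPM of all other passing barcodes, with Nr4a1, an immediate early gene that neutrophils also make, at 565 CPM and Treml4 at 269 CPM. The list for pericytes and muscle averaged 32.1 CPM against 7.73 CPM in the other barcodes, led by Acta2. Those for endothelium and classical monocytes averaged 90.2 and 82.2 CPM, against 402 and 565 CPM in the other barcodes, and all 4 genes of each had a UMI in all 6 mice. The summed lists for B cells, T cells and fibroblasts averaged 107, 18.9 and 3.54 CPM, and their most abundant genes were Ighm, Trbc2 and Col1a1. Of these, the T cell sum did not overlap between the groups, with 9.69, 15.4 and 12.1 CPM in the IgG1 mice and 39.3, 15.7 and 21.2 CPM in the ipilimumab mice. The nearest mice were almost level, at 15.4 and 15.7 CPM. The airway sum, led by Scgb1a1, was also apart, with 22.0, 16.8 and 4.39 CPM in the IgG1 mice and 192, 129 and 42.5 CPM in the ipilimumab mice. The sums of the remaining lists overlapped, and none was tested. For natural killer cells the most abundant gene was Gzma, with a mean of 35.0 CPM, where 92.5 to 100% of its UMIs came from 1 barcode in IgG1 replicates 2 and 3 and in ipilimumab replicates 1 and 2. The surfactant gene Sftpc stood at 1765 CPM in ipilimumab replicate 2 and at 0.881 to 18.1 CPM in the others, and 1 barcode held 1676 of the 1685 UMIs.

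**Figure D2:**
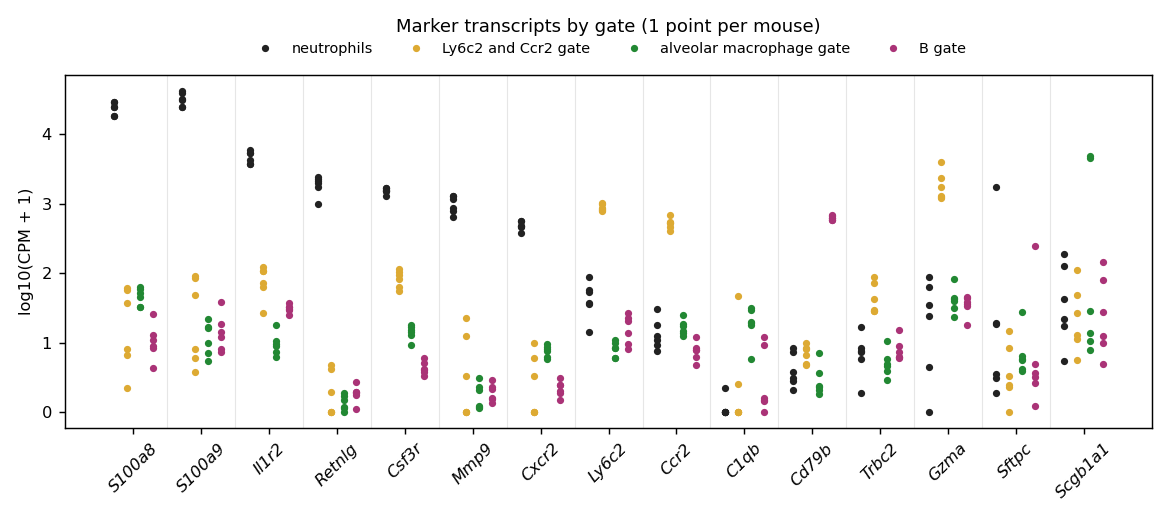
Levels of neutrophil markers and of markers of other cell types (y axis, log10 of CPM plus 1) in neutrophils, in cells with Ly6c2 and Ccr2, in the alveolar macrophage gate and in the B gate, with 1 point per mouse. For the first 7 genes every neutrophil point lies above every point of the other gates. Of these, S100a8, S100a9, Retnlg, Csf3r and Cxcr2 were used by the rule. The other gates held only barcodes under 50 S100a8 and S100a9 UMIs per 10000, so the separation in these 2 genes was set by the choice. The neutrophil point for Sftpc at 1765 CPM is the library in which 1 barcode held nearly all of its UMIs.

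Neutrophils were a lower percentage of passing barcodes in all 3 ipilimumab mice than in any IgG1 mouse, in a design that cannot reach p under 0.05. They were 5.89, 15.4 and 5.29% of barcodes in the IgG1 mice (274, 681 and 181 cells) and 2.90, 4.39 and 4.01% in the ipilimumab mice (242, 191 and 171 cells). The 95% Wilson intervals, which cover counting error only, were 5.25 to 6.61%, 14.4 to 16.5% and 4.59 to 6.09% for IgG1, and 2.56 to 3.29%, 3.82 to 5.05% and 3.46 to 4.64% for ipilimumab. Those of IgG1 replicates 1 and 3 overlapped each other, and the interval of IgG1 replicate 3 overlapped those of ipilimumab replicates 2 and 3.

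The mean share was 8.86% ± 5.67 (SD, n = 3) with IgG1 and 3.77% ± 0.775 (SD, n = 3) with ipilimumab, a difference of -5.09 percentage points. The exact two-sided permutation test gave p = 0.1, the smallest value that 3 mice against 3 can give, and p = 0.333 after Benjamini-Hochberg adjustment over the 10 shares tested. IgG1 replicate 2 decided the size of the difference, which was -1.82 points without it. Numbers of cells overlapped between the groups, 379 ± 266 against 201 ± 36.6 (SD, n = 3 each).

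With barcodes of at least 2000 UMIs in numerator and denominator, which removes the low totals of ipilimumab replicate 1, the shares were 6.0, 15.7 and 5.33% with IgG1 and 5.15, 4.58 and 4.05% with ipilimumab, still without overlap but with ipilimumab replicate 1 just under IgG1 replicate 3. Among barcodes with a UMI of Ptprc (CD45, the antigen of leukocytes) they were 6.61, 16.7 and 5.74% against 4.37, 4.97 and 4.65%.

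The alveolar macrophage gate and the B gate gave different answers as denominators. Both left out barcodes at or over the S100 limit of the rule, as did the gate of Ly6c2 and Ccr2. Per 100 barcodes of the alveolar macrophage gate (a UMI of Atp6v0d2, none of Cd79a or Cd3e) there were 58.2, 82.4 and 65.6 neutrophils with IgG1 and 42.0, 25.03 and 28.7 with ipilimumab, again without overlap (exact permutation p = 0.1). Per 100 barcodes of the B gate there were 12.7, 55.2 and 13.8 with IgG1 and 11.4, 14.5 and 12.4 with ipilimumab, and the groups overlapped (exact permutation p = 0.4). IgG1 replicate 2 alone was high on that scale, and the other 5 mice lay between 11.4 and 14.5. Per 100 barcodes with UMIs of both Ly6c2 and Ccr2 the groups overlapped as well (exact permutation p = 0.3). A share fixes no absolute number, since fewer neutrophils and more of the other cells cannot be told apart here.

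**Figure D3:**
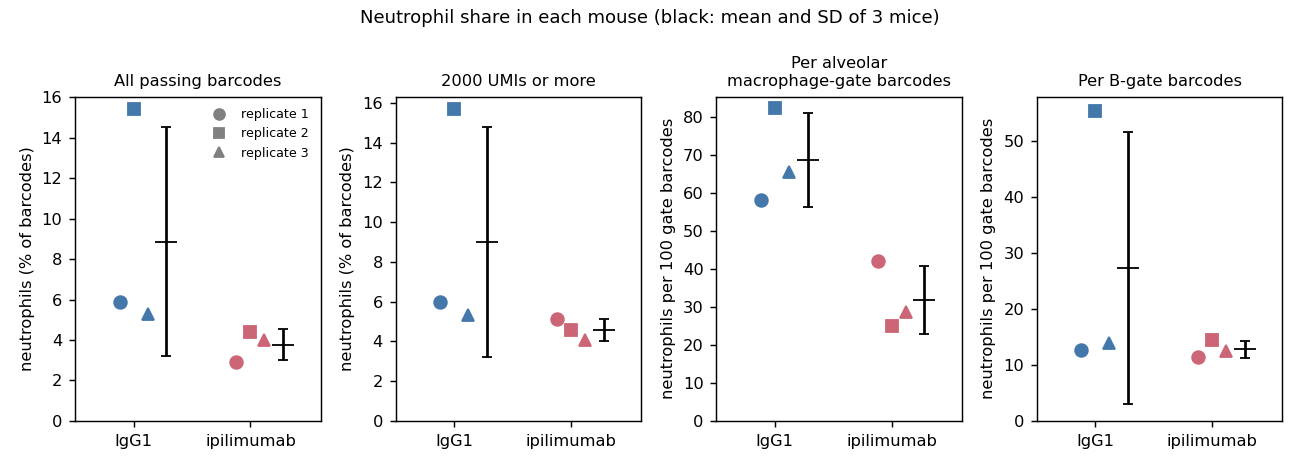
Neutrophils in each mouse as a percentage of all passing barcodes, as a percentage of barcodes of 2000 UMIs or more, and per 100 barcodes of the alveolar macrophage gate and of the B gate (y axes), by antibody (x axis). Points are mice and black bars are the mean ± SD of 3 mice. The groups are apart in the first 3 panels and overlap in the last, where IgG1 replicate 2 alone stands at 55.2.

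No gene passed the test between ipilimumab and IgG1 within neutrophils. UMIs were summed per mouse over 800202 to 2864512 neutrophil UMIs, and 5798 genes were tested with edgeR's quasi-likelihood method. With a call defined by a log2 fold change beyond 0.3 in either direction and an adjusted p below 0.05, 0 genes (0%) were called. Without adjustment, 305 genes had p under 0.05, of which 182 were higher and 123 lower with ipilimumab, and the smallest adjusted p was 0.218. DESeq2 called 0 genes as well, with 277 at an unadjusted p under 0.05. By the plainer measure of groups that did not overlap in CPM, 7.05% of tested genes were higher in every ipilimumab mouse and 3.23% were lower. The filter on low counts asked for 10.5 CPM in at least 3 mice, so that a low gene could enter through the group where it was high. Of the 361 genes that reached it in every ipilimumab mouse but not in every IgG1 mouse, 110 were higher in every ipilimumab mouse, a direction that the filter favours. Among the 4620 genes that reached it in all 6 mice, the shares were 6.47% higher and 3.55% lower. A p that misses the threshold does not show that the groups were alike.

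The 3 genes of smallest p that were higher with ipilimumab were Scgb1a1, Airn and Tecpr1. Scgb1a1, the club cell secretory protein, stood at 21.1, 16.1 and 4.39 CPM with IgG1 and at 188, 126 and 41.2 CPM with ipilimumab (log2 fold change 2.96 ± 0.52 SE, edgeR adjusted p = 0.218). In free RNA of the same libraries it stood at 1125, 1942 and 451 CPM with IgG1 and at 14594, 13578 and 2523 CPM with ipilimumab, also without overlap. Without members that carried markers of other lineages the log2 fold change in neutrophils was 1.90. Scgb1a1 is itself 1 of the airway markers, so its own level in part decided which members were left out. The part of free RNA in this difference was not tested.

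Airn, a noncoding RNA that overlaps Igf2r on mouse chromosome 17 (12741311 to 12860136), stood at 10.6, 11.2 and 10.97 CPM with IgG1 and at 29.7, 39.8 and 88.7 CPM with ipilimumab (log2 fold change 2.16 ± 0.38 SE, edgeR adjusted p = 0.218). The IgG1 mice lay close together, all below the ipilimumab mice. The IgG1 values lay just above the filter on low counts, 10.5 CPM. Airn is annotated as an antisense gene on the plus strand, and a mixing of reads from the overlapping genes was not tested. Without the members of more than 8000 UMIs the log2 fold change of Airn fell to 0.75, and with the S100 limit at 100 or 25 per 10000 it was 1.38 or 1.44. Without members that carried markers of other lineages Airn did not pass the filter on low counts and was not tested. Tecpr1, which takes part in the fusion of autophagosomes with lysosomes, stood at 11.5, 10.5 and 12.1 CPM with IgG1 and at 24.4, 44.0 and 29.99 CPM with ipilimumab (1.48 ± 0.31 SE, edgeR adjusted p = 0.606), and at 1.73 without the cells of more than 8000 UMIs. Scgb1a1 and Tecpr1 reached the filter in every ipilimumab mouse but not in every IgG1 mouse.

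The 3 of smallest p that were lower were Cc2d2b, Ankrd13c and Scaper. Ankrd13c stood at 239, 291 and 243 CPM with IgG1 and at 166, 180 and 131 CPM with ipilimumab (log2 fold change -0.76 ± 0.18 SE, edgeR adjusted p = 0.774). Cc2d2b stood at 132, 162 and 170 CPM against 89.2, 106 and 91.2 CPM (-0.75 ± 0.17 SE). Scaper, which binds cyclin A, stood at 126, 96.0 and 103 CPM against 65.8, 74.4 and 48.7 CPM (-0.82 ± 0.21 SE). In all 3 the groups did not overlap, and without the cells of more than 8000 UMIs the log2 fold changes were -0.73, -0.69 and -0.95 for Cc2d2b, Ankrd13c and Scaper.

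No gene of the 19 lists of neutrophil genes was called. Of 167 listed genes, 141 passed the filter on low counts and 0 were called, with 3 higher and 2 lower at an unadjusted p under 0.05. Groups were apart in 2.13% of the listed genes in the direction of higher ipilimumab and in 1.42% in the other, beside 7.05 and 3.23% of all tested genes. In the 15 lists with 5 or more tested genes, the median log2 fold change ran from -0.17 (receptors for Fc and complement) to 0.11 (survival and apoptosis), beside 0.0063 over all tested genes.

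Granule genes are made in the marrow, and their transcripts are left over in mature cells. The secondary granule list had a median of 0.37 over 4 tested genes. Chil3, a chitinase-like protein, stood at 66.1, 94.6 and 35.1 CPM with IgG1 and at 47.8, 93.2 and 284 CPM with ipilimumab (log2 fold change 0.95 ± 0.51 SE, edgeR adjusted p = 0.885). Ipilimumab replicate 3 alone was high, and the log2 fold change was -0.01 without it. Lcn2, lipocalin 2, which binds bacterial siderophores, stood at 242, 404 and 247 CPM with IgG1 and at 329, 423 and 209 CPM with ipilimumab, overlapping throughout. Mmp9 stood at 1274, 863 and 1180 CPM with IgG1 and at 1308, 647 and 776 CPM with ipilimumab (-0.32 ± 0.24 SE, edgeR adjusted p = 0.901), and the median of the 7 tertiary granule genes was -0.13.

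Levels of the main cytokine transcripts overlapped between the groups. Il1b stood at 7205, 6989 and 5998 CPM with IgG1 and at 8107, 6758 and 5521 CPM with ipilimumab (log2 fold change -0.04 ± 0.18 SE, edgeR adjusted p = 0.985). Cxcl2, which draws further neutrophils through Cxcr2, stood at 11481, 10985 and 10404 CPM with IgG1 and at 11639, 9777 and 10569 CPM with ipilimumab (-0.09 ± 0.15 SE, edgeR adjusted p = 0.954). The spread within each group covered the difference for both. The 12 cytokine genes ran from -0.64 to 0.70, with Il1rn, the interleukin-1 receptor antagonist, at the upper end. It stood at 289, 309 and 445 CPM with IgG1 and at 498, 312 and 959 CPM with ipilimumab, with overlap (0.70 ± 0.31 SE, edgeR adjusted p = 0.885). Ipilimumab replicate 3 was by far the highest, and the other mice lay between 289 and 498 CPM.

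The receptor and oxidase genes named here had log2 fold changes between -0.18 and -0.03. The complement receptor C5ar1 and the chemokine receptor Ccr1 had log2 fold changes of -0.08 ± 0.15 and -0.10 ± 0.14 (SE), and the oxidase subunit Cyba had -0.06 ± 0.15 (SE). Among adhesion genes, Cd44 and the integrin chain Itgam stood at -0.09 ± 0.14 and -0.03 ± 0.18 (SE). Trem1, an activating receptor, and its adaptor Tyrobp stood at -0.17 ± 0.15 and -0.18 ± 0.14 (SE). Lilrb4a and Lilr4b, from the list of inhibitory and regulatory genes, stood at -0.16 ± 0.15 and -0.11 ± 0.15 (SE), and are near-identical paralogs between which the counting may split reads. None of these passed the test.

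Genes of highest level from further lists were tested as well. S100a6 and S100a11, calcium-binding proteins, stood at log2 fold changes of 0.11 ± 0.16 and -0.12 ± 0.15 (SE). Slpi, an inhibitor of neutrophil elastase, stood at -0.13 ± 0.14, and the survival genes Mcl1 and Bcl2l11 (protective and proapoptotic) at -0.17 ± 0.15 and -0.08 ± 0.14 (SE). The transcription factors Cebpb, Runx1 and Junb stood at -0.02 ± 0.15, -0.08 ± 0.16 and -0.04 ± 0.17 (SE), and the phosphatase Dusp1 at -0.08 ± 0.16. The glucose transporter Slc2a3 and the glycolytic enzyme Pkm stood at -0.23 ± 0.15 and -0.11 ± 0.15 (SE). Ptgs2, which makes prostaglandins, stood at -0.15 ± 0.20, the cathepsins Ctsd and Ctsb at -0.06 ± 0.16 and 0.36 ± 0.31, the protease inhibitor Timp2 at -0.02 ± 0.25, and the lipid mediator genes Alox5ap and Pla2g7 at -0.08 ± 0.16 and -0.10 ± 0.13 (SE). None of them passed the threshold. The value of Ctsb was 0.83 with each cell thinned to 500 UMIs and -0.13 without ipilimumab replicate 3.

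Of the interferon-stimulated genes, the 2 of the highest level overlapped between the groups. Ifitm1, an antiviral membrane protein, stood at 548, 1214 and 614 CPM with IgG1 and at 644, 1144 and 509 CPM with ipilimumab, so that replicate 2 was high in both groups (log2 fold change -0.13 ± 0.34 SE). Ifitm3 stood at -0.05 ± 0.23 (SE), and the median of the 12 tested genes was -0.12.

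Of the 5 listed genes with an unadjusted p under 0.05, named here because of it, Il1rn, Xbp1 (a factor of the unfolded protein response) and Tuba1b (a tubulin) were higher and Fpr1 (the receptor for formylated peptides) and Il10 were lower. Tuba1b, the single tested gene of 6 on the cell cycle list, stood at 5.29, 10.5 and 16.5 CPM with IgG1 and at 27.6, 28.3 and 26.2 CPM with ipilimumab (log2 fold change 1.31 ± 0.36 SE, edgeR adjusted p = 0.786). Tuba1b reached the filter on low counts in all ipilimumab mice but not in all IgG1 mice, and Il10 in all IgG1 mice but not in all ipilimumab mice, so that the filter favoured the direction of each. Tuba1b had too few counts to be tested without the cells of more than 8000 UMIs. Fpr1 stood at 140, 209 and 155 CPM with IgG1 and at 113, 148 and 83.7 CPM with ipilimumab, with overlap (-0.62 ± 0.24 SE, edgeR adjusted p = 0.873). Il10 stood at 19.4, 14.0 and 23.0 CPM against 5.31, 10.5 and 13.7 CPM, without overlap (-0.95 ± 0.38 SE, edgeR adjusted p = 0.885).

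**Figure D4:**
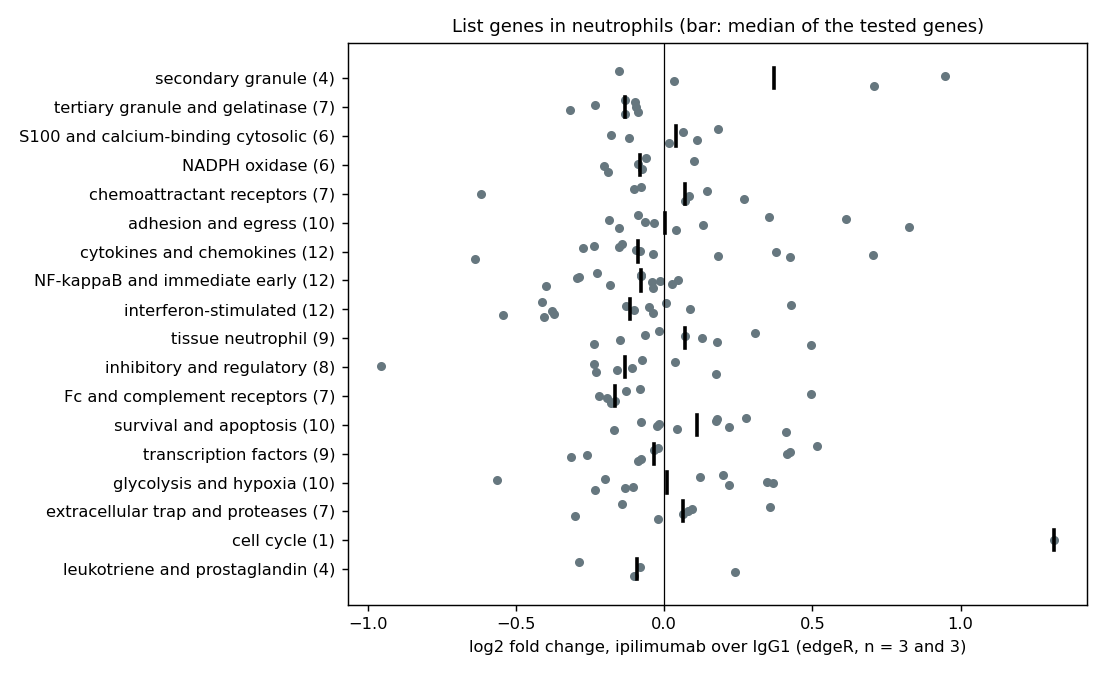
Log2 fold change of each tested list gene, ipilimumab over IgG1 (x axis), by list (y axis, number of tested genes in brackets), with black bars at the list medians. Medians of the lists with 5 or more tested genes lie between -0.17 and 0.11, and the single tested cell cycle gene, Tuba1b, lies at 1.31.

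Shares of neutrophils with a given transcript were compared after each cell was thinned to 500 UMIs, so that depth was equal. No share passed the exact permutation test after adjustment over the 10 shares (smallest adjusted p = 0.333), and free RNA was gauged by the same share in the B gate. Cxcl2 was found in 92.7, 93.1 and 92.3% of cells with IgG1 and in 91.7, 90.6 and 88.9% with ipilimumab, without overlap (exact permutation p = 0.1), against 1.53% of the B gate. The Cxcl2 shares overlapped without thinning, without the cells of more than 8000 UMIs (exact permutation p = 0.6 for each), and with stricter limits of 1000 UMIs, of 100 S100 UMIs per 10000 or of 4 receptor UMIs. The difference of -2.29 points was -0.970 without the cells of more than 8000 UMIs. Il1b was found in 91.6, 91.2 and 86.7% against 88.4, 92.1 and 83.0% (exact permutation p = 0.7).

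Secondary granule transcripts (Camp, Ngp or Ltf) were found in 1, 7 and 2 cells with IgG1 and in 3, 3 and 2 cells with ipilimumab, or 0.365, 1.03 and 1.10% against 1.24, 1.57 and 1.17%, higher with ipilimumab and without overlap (exact permutation p = 0.1). These shares rest on 1 to 7 cells a mouse, and they overlapped with limits of 1000 UMIs or of 100 S100 UMIs per 10000 (exact permutation p = 0.2 for each). The difference of 0.494 points was 0.260 without IgG1 replicate 1. Without thinning the shares were 1.82, 3.82 and 4.42% against 4.55, 7.33 and 5.85%, also without overlap, with 0.629% of the B gate.

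The unthinned shares, which also follow the depth of each cell, were apart between the groups for Il1b (means of 99.7 and 98.6%) and Mmp9 (95.3 and 87.8%), each lower with ipilimumab (exact permutation p = 0.1). Of the 64 members under 1500 UMIs, 41 were in ipilimumab replicate 1, and their part in these differences was not tested beyond the thinning. For Il1b and Mmp9 the thinned shares overlapped. The unthinned means with IgG1 and ipilimumab were 98.6 and 98.1% for Cxcl2, 48.5 and 44.7% for Ccl3 or Ccl4, 36.4 and 36.6% for Cd274, 49.0 and 45.8% for the interferon genes and 3.96 and 4.78% for Siglecf, all with overlap.

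The gelatinase transcript Mmp9 was found in 45.3, 35.4 and 45.3% of cells with IgG1 and in 40.5, 27.7 and 33.3% with ipilimumab, with overlap (exact permutation p = 0.2). Chemokine transcripts Ccl3 or Ccl4 were found in 16.1, 21.1 and 22.1% against 13.6, 13.1 and 23.4% (exact permutation p = 0.4). Cd274, the ligand PD-L1, was found in 8.03, 5.87 and 14.4% against 9.50, 6.81 and 4.09% (exact permutation p = 0.5), beside 5.01% of the B gate, whose cells can make it too. A UMI of Isg15, Ifit1, Ifit3 or Rsad2 was found in 13.5, 18.8 and 14.9% against 16.9, 15.7 and 11.7% (exact permutation p = 0.8). Siglecf, a marker of one tissue state of neutrophils and of eosinophils, was found in 0 to 3 cells of a mouse. In the B gate the shares were 0.0629% for Mmp9, 0.944% for Ccl3 or Ccl4, 0.472% for the interferon genes and 0.923% for Il1b, all far under those of neutrophils.

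The effect of the antibody in neutrophils was set against that in barcodes with UMIs of Ly6c2 and Ccr2, which are defining transcripts of classical monocytes. Barcodes at or over the S100 limit of the rule were left out, as were those with a UMI of Cd79a, Cd3e, Atp6v0d2 or Flt3. These 523 barcodes also held Gzma at a mean of 1966 CPM and Ccl5 at 3252 CPM, transcripts of cytotoxic lymphocytes, and are therefore named by the gate. Of 8242 genes, 0 (0%) differed in their response between the gates by edgeR's interaction test with the mouse as a block, 590 had an unadjusted p under 0.05, and the smallest adjusted p was 0.240. Barcodes without Gzma and Nkg7 were 52 of 76, 79 of 119 and 59 of 88 in the IgG1 mice and 46 of 78, 23 of 75 and 44 of 87 in the ipilimumab mice. With these 303 barcodes as the gate there were 0 calls as well, with 376 genes at an unadjusted p under 0.05.

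Stat4, which relays interleukin-12, was among the 3 genes of smallest p with a lower response in neutrophils. In neutrophils it stood at 390, 451 and 419 CPM with IgG1 and at 379, 305 and 240 CPM with ipilimumab. In the gate it stood at 196, 192 and 205 CPM with IgG1 and at 334, 603 and 369 CPM with ipilimumab (log2 difference of the responses -1.64 ± 0.29 SE, edgeR adjusted p = 0.240). The groups did not overlap in either, with opposite directions, and the part of the barcodes with Gzma or Nkg7 in the gate's values was not tested for this gene. Il18rap, a subunit of the interleukin-18 receptor, and Mctp2 had log2 differences of -1.28 ± 0.21 and -1.51 ± 0.26 (SE, edgeR adjusted p = 0.240 for each). In the other direction, Abcb1b (a drug transporter), Pawr and H2-DMb1 had log2 differences of 2.64 ± 0.55, 6.39 ± 1.25 and 3.15 ± 0.69 (SE), with neutrophil levels of at most 24.99, 18.9 and 58.7 CPM. Pawr was at or under 1.25 CPM in 5 of 6 mice, and H2-DMb1 was high in ipilimumab replicate 3 alone.

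Neutrophils of 1 mouse also differed among themselves, and 2 groups of transcripts are described here. Pearson correlations were taken within each mouse over 151 to 652 cells of 1500 to 8000 UMIs and 1210 genes. Cells of a mouse share a library, the genes to start from were chosen after values were seen, and the correlations are a description with no test. Nfkbia encodes the inhibitor that NF-kappaB induces to end its own action. The 10 genes most like it were Rel and Nfkb1 (subunits of NF-kappaB), Tnfaip3, Birc3, Irak2, Malt1 and Zc3h12a (of the same signalling path and its feedback), Ccrl2 (a receptor for chemerin), Dusp2 and Gadd45b. Over the mice, r with Nfkbia ran from 0.326 to 0.472 for Rel, from 0.325 to 0.531 for Nfkb1 and from 0.312 to 0.487 for Tnfaip3. Il1r2 ran the other way, from -0.338 to -0.164. The correlation of Nfkbia with the log UMI total was weak, -0.104 to 0.0323.

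With Retnlg, the likest genes were S100a9 (0.469 to 0.565), S100a8 (0.442 to 0.533) and Wfdc21 (0.333 to 0.424). Retnlg, S100a8 and S100a9 were all used by the rule, which can shape their relation. B2m, the light chain of class I molecules, ran from -0.251 to -0.168. The correlation of Retnlg with the log UMI total was 0.0289 to 0.270.

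**Figure D5:**
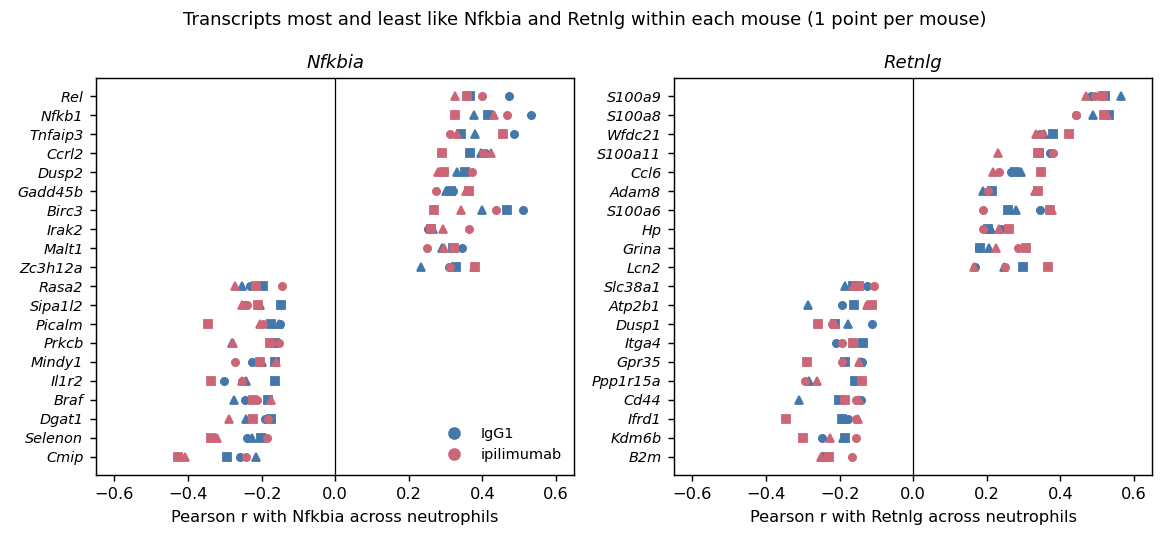
Pearson r across the neutrophils of each mouse (x axis) for the 10 genes most like and the 10 least like Nfkbia (left) and Retnlg (right), 1 point per mouse and coloured by antibody. The 10 genes at the top of each panel have r above 0 in all 6 mice and the 10 at the bottom have r below 0. They were ranked by their lowest or highest r over the mice, a choice that favours the same sign in all of them. IgG1 and ipilimumab points mix.

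The promoters of the Nfkbia group show where a core of the NF-kappaB motif lies, searched on both strands as GGGA, then 4 bases of any kind, then CC. RefSeq windows (GRCm38.p6, 250 bases before to 50 after the start) were found for 9 of the 11 genes. It was in 6 of their 12 windows, which belong to 5 genes and in part overlap, and in 20.7% of the 32851 windows in the table. The windows of Dusp2, Gadd45b, Irak2 and Zc3h12a did not hold it. A match is a description of letters and not a bound site. The windows of Nfkbia (chr12:55492598-55492897, minus strand), Rel (chr11:23770920-23771219, minus strand) and Ccrl2 (chr9:111057469-111057768, minus strand) are shown 5′ to 3′ with the matches in capitals, since these genes were among the 4 likest Nfkbia or were Nfkbia itself. The matches started at -212 and -29 in Nfkbia, at -92 in Rel and at -68 and -56 in Ccrl2, counted from the start.
Nfkbia: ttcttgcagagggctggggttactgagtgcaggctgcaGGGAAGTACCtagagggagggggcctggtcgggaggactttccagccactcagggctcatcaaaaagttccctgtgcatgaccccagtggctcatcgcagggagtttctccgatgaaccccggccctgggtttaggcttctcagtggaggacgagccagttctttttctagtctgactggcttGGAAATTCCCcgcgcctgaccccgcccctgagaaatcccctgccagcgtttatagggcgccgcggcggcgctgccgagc
Rel: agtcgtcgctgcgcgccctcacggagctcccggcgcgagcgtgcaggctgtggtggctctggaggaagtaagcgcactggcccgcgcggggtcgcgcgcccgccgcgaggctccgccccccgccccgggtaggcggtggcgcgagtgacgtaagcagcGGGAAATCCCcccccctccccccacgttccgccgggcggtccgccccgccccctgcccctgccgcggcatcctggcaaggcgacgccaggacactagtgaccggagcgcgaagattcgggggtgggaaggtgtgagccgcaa
Ccrl2: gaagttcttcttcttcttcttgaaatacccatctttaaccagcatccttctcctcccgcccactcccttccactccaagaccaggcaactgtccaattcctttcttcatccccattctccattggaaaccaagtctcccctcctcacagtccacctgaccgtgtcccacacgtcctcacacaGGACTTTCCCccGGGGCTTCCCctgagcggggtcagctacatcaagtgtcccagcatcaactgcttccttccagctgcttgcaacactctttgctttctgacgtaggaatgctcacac

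None of the 11 genes was called between the groups, with a smallest edgeR adjusted p of 0.887. Nfkbia stood at 1003, 530 and 889 CPM with IgG1 and at 772, 802 and 971 CPM with ipilimumab (log2 fold change 0.03 ± 0.20 SE, edgeR adjusted p = 0.990). Tnfaip3 stood at 315, 153 and 303 CPM with IgG1 and at 206, 179 and 211 CPM with ipilimumab (-0.40 ± 0.23 SE). IgG1 replicate 2, the mouse with the highest share of neutrophils, was the lowest of the IgG1 mice in all 11 genes. It was the lowest of all 6 mice in 10 genes by CPM and in 7 after division by the TMM factors of the test. The genes were chosen for their correlation within mice, they are not independent of each other, and this order was seen afterwards and not tested.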

How the data were processed

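Right lungs of 6 mice were digested by the authors, and 1 droplet library per mouse (Single Cell 3' v3.1 chemistry) was sequenced. The deposited values are raw counts of UMIs per gene and barcode, for filled and empty droplets alike, and 32285 genes. The submitters' processing notes name Cell Ranger 7.0.0 and mm10. The authors' later filtering and cell names were not used.

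Neutrophils, gates and gene lists were chosen with earlier results of these data known. Cells were not clustered, and no doublet caller was run. UMIs were summed per mouse and tested with edgeR 4.0.16 (quasi-likelihood, TMM, filterByExpr, R 4.3.3, Benjamini-Hochberg over all genes tested), after a check on simulated data. Calls required a log2 fold change beyond 0.3 in either direction with adjusted p below 0.05. DESeq2 1.42.0 was an alternative. Shares were tested by exact two-sided permutation over mice (scipy 1.17.1), whose smallest p is 0.1. Named genes were the 3 of smallest p in each direction with a mean of at least 20 CPM, the 2 of highest level on each list, the genes of the shares, the most abundant gene of each other lineage, and 3 interaction genes in each direction. Exceptions are given as such, and 2 of these genes are not reported here. Other thresholds, normalizations, thinning, subtraction of free RNA and leaving out each mouse were also tried.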

Additional observations from a re-analysis of the deposited data

How the results depend on the processing

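The lower neutrophil percentage with ipilimumab kept its direction under every threshold and denominator on the share scale, with differences from -6.05 to -4.41 points, and ran from -6.88 to -1.82 points when 1 mouse was left out. The count of genes called was 0 in 17 of 20 alternatives. Without the filter on low counts it was 127 of 17230 genes tested (109 higher and 18 lower with ipilimumab), among them Scgb1a1, Airn, Tecpr1, Cc2d2b, Ankrd13c, Scaper and Chil3, with edgeR adjusted p-values up to 0.0175. The 127 also held transcripts of other cell types, such as Sftpa1, Sftpb, Sftpc, Sftpd, Gzma and Nkg7. The part of free RNA and of mixed barcodes in this count was not tested. Over the runs without 1 mouse the count was 0 to 1 (Scgb1a1, without ipilimumab replicate 3). The count of genes with a response that differed from the Ly6c2 and Ccr2 gate was 91 without that filter, 7 without cells over 8000 UMIs (Ext1, Il18rap, Mctp2, Satb1, Scaper, Stat4 and Uty, an alternative chosen after seeing the data), and 0 to 1 over the runs without 1 mouse (Stat4, without ipilimumab replicate 1). The causes were not tested.

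Deviations of mice with the same replicate number correlated at 0.0707, 0.0382 and 0.0308, and those of mice with different numbers at -0.0806 to 0.0382. All were weak, and whether the numbers pair the mice was not tested. With the replicate block, 2 genes (Airn and Scgb1a1) were called, and the share difference was -5.09 points (exact sign-flip p = 0.25, the smallest it can give).

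Without thinning, the difference in share was 2.55 points for secondary granule transcripts, -0.555 for Cxcl2 and 0.202 for Cd274, where the sign turned. Without 1 mouse, the difference for Il1b ran from -4.11 to 0.443 (without ipilimumab replicate 3). That for interferon genes ran from -2.07 to 0.586, with the sign turned without IgG1 replicate 2 (0.571) and without ipilimumab replicate 3. For Cd274 it was -2.62 with all mice, -4.40 without IgG1 replicate 2 and -0.150 without IgG1 replicate 3. For Ccl3 or Ccl4 it was -3.06 with all mice and -1.25 without ipilimumab replicate 2. Without ipilimumab replicate 3 it was -6.41, and the groups were then apart. For Mmp9 it was -8.12 with all mice, and it ran from -11.4 (without ipilimumab replicate 1, groups apart) to -5.07 (without ipilimumab replicate 2). Of 41 named genes, 21 changed sign under at least 1 of up to 20 alternatives, with main log2 fold changes of at most 0.95. The 7 of the 41 called under at least 1 were Scgb1a1, Airn, Tecpr1, Cc2d2b, Ankrd13c, Scaper and Chil3.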

Other observations

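The 2 genes that follow are outside the lists and were picked by no fixed rule, after their values were seen, from the 409 of 5798 tested genes (7.05%) that were higher in every ipilimumab mouse. A further 187 (3.23%) were lower in every one. Transcripts of mt-Nd3, a mitochondrial subunit of the respiratory chain, stood at 74.2 ± 12.8 CPM with IgG1 and at 131 ± 12 CPM with ipilimumab (SD, 3 mice each), and Atp5g3, a subunit of the ATP synthase, at 19.4 ± 0.274 and 38.9 ± 2.39 CPM. The edgeR adjusted p-values were 0.606 for mt-Nd3 and 0.786 for Atp5g3, so neither was called. The median percentage of mitochondrial UMIs stood at 0.138, 0.136 and 0.128% with IgG1 and at 0.194, 0.181 and 0.191% with ipilimumab. It did not overlap between the groups, and its part in these genes was not tested.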
